A study of Lactuca sativa with 32 samples.

Results

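The genes described here are 150 lettuce genes whose leaf transcript level was lowest behind an FTAZ:IT-M filter when light intensity was adjusted. They were chosen from the measured values, as follows. Counts were scaled to 1000000 per plant by the total of its counts (CPM), and L is log2(CPM + 0.1). Only the 16 plants of the intensity-adjusted experiment and genes with a mean of at least 1 CPM over those plants entered. The difference d is the mean L of a group minus the mean of the other 3 group means. A gene was kept if its largest absolute d fell in FTAZ:IT-M and all 4 plants of that group lay below the other 12 plants. Of 43717 genes, 20306 passed the CPM minimum, 6500 had their largest d in this group, and 427 met the whole rule. A last step would have removed genes with all 16 plants of the other experiment on the same side of these 16, and it removed 0 genes. The 150 genes with the largest absolute d were taken.

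The samples are leaves of red oak leaf lettuce (Lactuca sativa), each from a separate plant, with 4 plants in each of 8 groups. In every group the final harvest was at week 5, and the labels do not state at which harvest these leaves were taken. Light came from incandescent and ceramic metal halide lamps, through clear glass (the control) or through 1 of 3 organic solar cell filters carrying the light-absorbing blend FTAZ:IT-M, FTAZ:PCBM or PTB7-Th:IEICO-4F. In the PAR controlled experiment (PC, where PAR is photosynthetically active radiation) light intensity was adjusted, and in the height controlled experiment (HC) it was not. The 8 groups are therefore the control and the 3 filters in PC and the same 4 covers in HC. All plants carry the same cultivar description, and no genotype, strain or chemical treatment separates the groups. The labels do not tie plants to growth boxes, so an effect of the box cannot be told apart from that of the cover.

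Leaves sense the colour and the amount of light through photoreceptors such as phytochromes, cryptochromes and phototropins, and through the state of photosynthesis itself. Both routes change the transcript levels of many nuclear genes, so a filter that changes the spectrum and a change in intensity can reach overlapping sets of genes. Long non-coding RNAs, which come up among these genes, are long transcripts in which no protein-coding frame is annotated. The files give genes by LOC identifiers without product names, so no role is stated for any single gene.

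Total counts ranged from 47289413 to 48764530 per plant, and 3 counts corresponded to 0.0615 to 0.0634 CPM. The deposited counts carry a number for each plant, called the library number here, and the labels do not say what it stands for. These numbers follow the groups. They run from 1 to 4 in PC FTAZ:IT-M, 17 to 28 in the other PC groups, 5 to 16 in the HC control and HC FTAZ groups and 29 to 32 in HC PTB7-Th:IEICO-4F. Library number and group can therefore not be told apart. All 150 genes had reads in every plant, the lowest count being 6, and all passed the low-count filter of the tests. The leaf label was not checked against marker genes.

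Within PC the values of these genes are a description, because they chose the list. The difference d ranged from −2.54 to −0.60 with a median of −0.80, which as a ratio is a level 1.51 to 5.81 times lower, with a median of 1.74 times. It was beyond −1 in 33 genes and beyond −2 in 7. Most genes cleared the criterion by little, since the log2 gap between the highest FTAZ:IT-M plant and the lowest of the other 12 plants was 0.0023 to 0.99 with a median of 0.15. In whole leaves, a lower level can mean fewer cells of a type or less RNA per cell, and these cannot be told apart.

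Averaged over the 150 genes, the level of the 4 PC FTAZ:IT-M plants was −0.67, −0.82, −0.80 and −0.51, in log2 units from the mean of the 16 PC plants. Their mean was −0.70 ± 0.14 (SD, n = 4). Replicate 4 lay closest to the other groups and was the highest of the 4 plants in 91 genes, while replicates 2 and 3 were each the lowest in 61. The PC control plants stood at 0.41, 0.01, 0.01 and 0.07, with a mean of 0.12 ± 0.19 (SD, n = 4). Replicate 1 of the control stood above the rest of its group and was its highest plant in 113 genes. PC FTAZ:PCBM averaged 0.22 ± 0.15 and PC PTB7-Th:IEICO-4F 0.36 ± 0.12 (SD, n = 4 each).

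The levels in HC fell between the PC groups. The HC control plants stood at −0.34, −0.34, −0.29 and −0.34, and the HC FTAZ:IT-M plants at −0.30, −0.39, −0.39 and −0.29. Averages were −0.33 ± 0.02 and −0.34 ± 0.05 (SD, n = 4 each), so these groups differed by less than the spread of plants. HC FTAZ:PCBM averaged −0.27 ± 0.09 and HC PTB7-Th:IEICO-4F −0.21 ± 0.20 (SD, n = 4 each). All 16 HC plants, at −0.43 to 0.0041, lay above the 4 PC FTAZ:IT-M plants and below the other 12 PC plants, whose lowest value was 0.0067. The choice of genes had set these PC plants apart, so the place of the HC plants between them is a description.

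**Figure D1:**
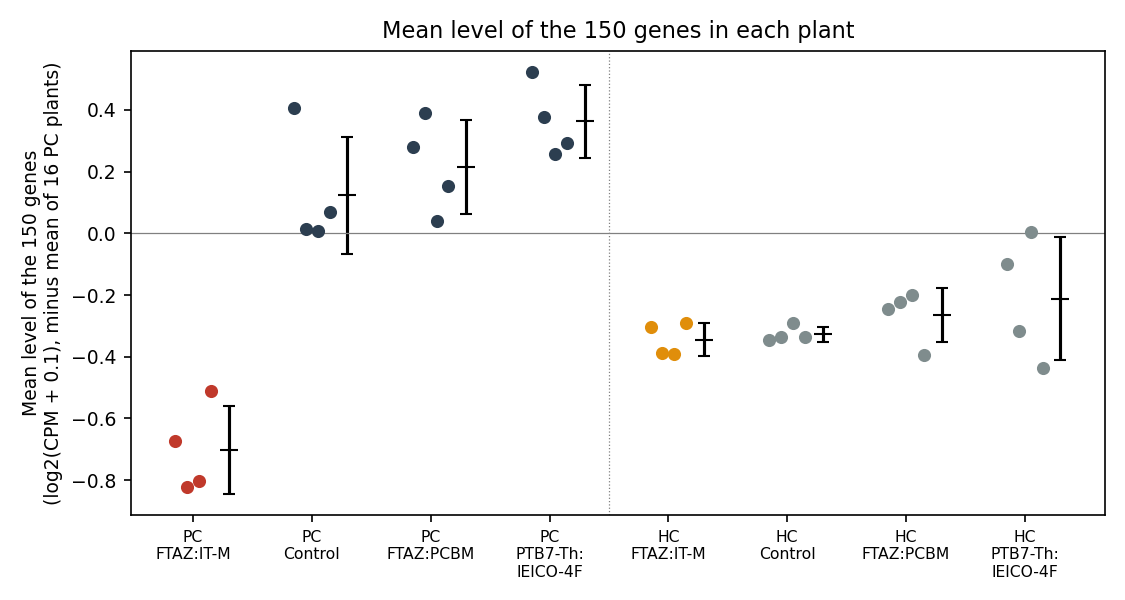
Mean level of the 150 genes in each plant, as log2(CPM + 0.1) minus the mean of the 16 PC plants. Points are plants, and the bars give the mean and SD of 4 plants. The 4 PC FTAZ:IT-M plants are at −0.82 to −0.51, the other PC plants at 0.0067 to 0.52 and the HC plants between −0.43 and 0.0041.

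The other 3 PC groups were not alike in these genes. The highest group mean was that of PTB7-Th:IEICO-4F in 101 genes, of FTAZ:PCBM in 45 and of the control in 4. The lowest of the 3 was the control in 88 genes, FTAZ:PCBM in 51 and PTB7-Th:IEICO-4F in 11. The span of the 3 group means was 0.06 to 1.14 on the log2 scale, with a median of 0.32. The widest spans were in LOC111889306 and LOC111896659, and the narrowest in LOC111912937 and LOC111916020. Positions are given on scaffolds of the Lsat_Salinas_v7 assembly, as in the deposited files.

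In LOC111889306 (NW_019681416.1, 539750 to 548731, plus strand), the PC FTAZ:IT-M plants had 20.7, 22, 23.1 and 20.5 CPM and the PC control plants 29.9, 24.5, 23.4 and 24.6 CPM. The PC FTAZ:PCBM plants had 62.6, 58.7, 52.3 and 51.5 CPM and those of PC PTB7-Th:IEICO-4F 49.8, 53.8, 38.4 and 56.5 CPM. The control thus stood just above the FTAZ:IT-M plants, with a mean of 25.6 ± 2.9 CPM against 21.6 ± 1.2 CPM (SD, n = 4 each), and both other filters stood above the control without overlap. LOC111896659 (NW_019672874.1, 741586 to 751885, plus strand) differed in order, with 2.15 ± 1.18 CPM (SD, n = 4) in PC FTAZ:IT-M, 5.26 ± 1.19 CPM (SD, n = 4) in PC FTAZ:PCBM, 6.38 ± 0.958 CPM (SD, n = 4) in the PC control and 10.4 ± 1.72 CPM (SD, n = 4) in PC PTB7-Th:IEICO-4F. In the long non-coding RNA LOC111912937 (NW_019676440.1, 2612585 to 2615594, plus strand) the 3 other groups were level. Its PC FTAZ:IT-M plants had 4.26, 4.45, 3.36 and 4.46 CPM, and the group means of the control, FTAZ:PCBM and PTB7-Th:IEICO-4F were 6.98, 6.91 and 6.67 CPM.

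The gene with the largest difference was LOC111888460 (NW_019681142.1, 217140 to 220248, minus strand), annotated as protein coding, with d of −2.54. Its PC FTAZ:IT-M plants had 6.49, 6.59, 4.91 and 8.4 CPM. The PC control plants had 124, 16.9, 25.1 and 36 CPM, those of PC FTAZ:PCBM 47.2, 77.6, 15.3 and 29.5 CPM and those of PC PTB7-Th:IEICO-4F 89.9, 38.4, 33.2 and 26.3 CPM. The FTAZ:IT-M plants were low and close together, while plants of every other PC group differed among themselves by several fold, with a single high plant in the control. In HC the gene was low under every cover, at 7.2 ± 1.22 CPM (SD, n = 4) in the control and 8.3 ± 2.65 CPM (SD, n = 4) in FTAZ:IT-M. The 16 HC plants reached 13.5 CPM, below the lowest of the 12 other PC plants at 15.3 CPM.

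LOC111912265 (NW_019676310.1, 1367932 to 1370704, plus strand), also protein coding, had d of −2.43 and the same layout. Its PC FTAZ:IT-M plants had 9.3, 7.07, 6.46 and 13.2 CPM and the PC control plants 112, 29.6, 30.8 and 39.6 CPM. In HC it stood at 13.4 ± 1.5 CPM (SD, n = 4) in the control and 15.2 ± 3.13 CPM (SD, n = 4) in FTAZ:IT-M, and its 16 HC plants ended at 24.2 CPM, below all 12 other PC plants. LOC111901068 (NW_019673668.1, 597568 to 600426, minus strand) had d of −2.21, with 3.02, 2.45, 2.38 and 4.23 CPM in the PC FTAZ:IT-M plants and 22.6, 9.54, 11.4 and 11 CPM in the PC control. Its HC control plants had 3.59, 3.43, 6.02 and 3.83 CPM, which overlaps the PC FTAZ:IT-M range. Replicate 1 of the PC control was the highest control plant in 9 of the 12 genes with the largest d, and replicate 3 of PC FTAZ:PCBM was the lowest of the 12 other plants in 7 of them.

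The remaining genes with d beyond −2 also had controls that varied widely from plant to plant. LOC111888373 (NW_019681106.1, 701528 to 702502, plus strand) stood at 0.394 ± 0.0737 CPM (SD, n = 4) in PC FTAZ:IT-M and 3.49 ± 2.33 CPM (SD, n = 4) among the PC control plants. LOC111904729 (NW_019674249.1, 423241 to 424135, plus strand) had 0.395 ± 0.106 CPM against 2.87 ± 2.33 CPM (SD, n = 4 each). For LOC111909436 (NW_019675527.1, 261074 to 263661, minus strand) these levels were 0.929 ± 0.235 CPM (SD, n = 4) and 5.95 ± 4.58 CPM (SD, n = 4), and for LOC111920377 (NW_019677966.1, 37808 to 39317, plus strand) 5.36 ± 2.2 CPM (SD, n = 4) and 25.6 ± 15.9 CPM (SD, n = 4). In each of these genes the SD of the PC control was more than the mean of PC FTAZ:IT-M, and in each the lowest control plant was still above the highest PC FTAZ:IT-M plant.

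A different layout appeared in LOC111904218, LOC111886743 and LOC111877411, where the HC plants were high. LOC111904218 (NW_019674176.1, 1556007 to 1557064, minus strand, d of −1.93) had 0.847, 0.79, 0.352 and 0.772 CPM in the PC FTAZ:IT-M plants and 1.36, 1.48, 3.85 and 1.97 CPM in the PC control. Its HC control plants had 7.28, 3.64, 5.92 and 4.04 CPM and its HC FTAZ:IT-M plants 4.6, 5.98, 3.56 and 4.98 CPM. The HC groups overlapped each other, and all 16 HC plants were above the PC FTAZ:IT-M plants. LOC111886743 (NW_019680820.1, 2811340 to 2813808, plus strand, d of −1.82) had 27.6, 25.9, 32.2 and 33.5 CPM in PC FTAZ:IT-M and 42.6, 68, 167 and 85.1 CPM in the PC control. In HC its level was 197 ± 58.7 CPM (SD, n = 4) in the control, 187 ± 24.1 CPM (SD, n = 4) in FTAZ:IT-M and 119.8 ± 29.1 CPM (SD, n = 4) in PTB7-Th:IEICO-4F, and the plants of the first pair overlapped.

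LOC111877411 (NW_019678644.1, 204628 to 207796, plus strand, d of −1.85) was the most abundant per length of the 12 genes with the largest d, at 257 CPM per kilobase of exon over the 16 PC plants. The PC FTAZ:IT-M plants had 136, 95.4, 177 and 218 CPM and the PC control plants 562, 573, 457 and 405 CPM. In HC the control plants had 449, 370.1, 341 and 337 CPM and the FTAZ:IT-M plants 545, 520.0, 496 and 599 CPM. The FTAZ:IT-M plants were thus below every control plant in PC and above every control plant in HC. The HC difference was 0.59 (log2, SE 0.16), and its edgeR adjusted p of 0.536 did not pass 0.05. The HC PTB7-Th:IEICO-4F plants, at 459 to 593 CPM, also lay above every HC control plant. Their log2 fold change was 0.46 (DESeq2 Wald adjusted p 0.048, edgeR adjusted p 0.0935). LOC111918586 (NW_019677590.1, 685077 to 686812, plus strand) and LOC111901466 (NW_019673703.1, 2839635 to 2842358, minus strand) complete the 12 largest differences, at 0.84 ± 0.0739 CPM against 3.46 ± 0.642 CPM (SD, n = 4 each) in the PC control for the former and 5.63 ± 1.23 CPM against 20.5 ± 9.29 CPM (SD, n = 4 each) for the latter.

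**Figure D2:**
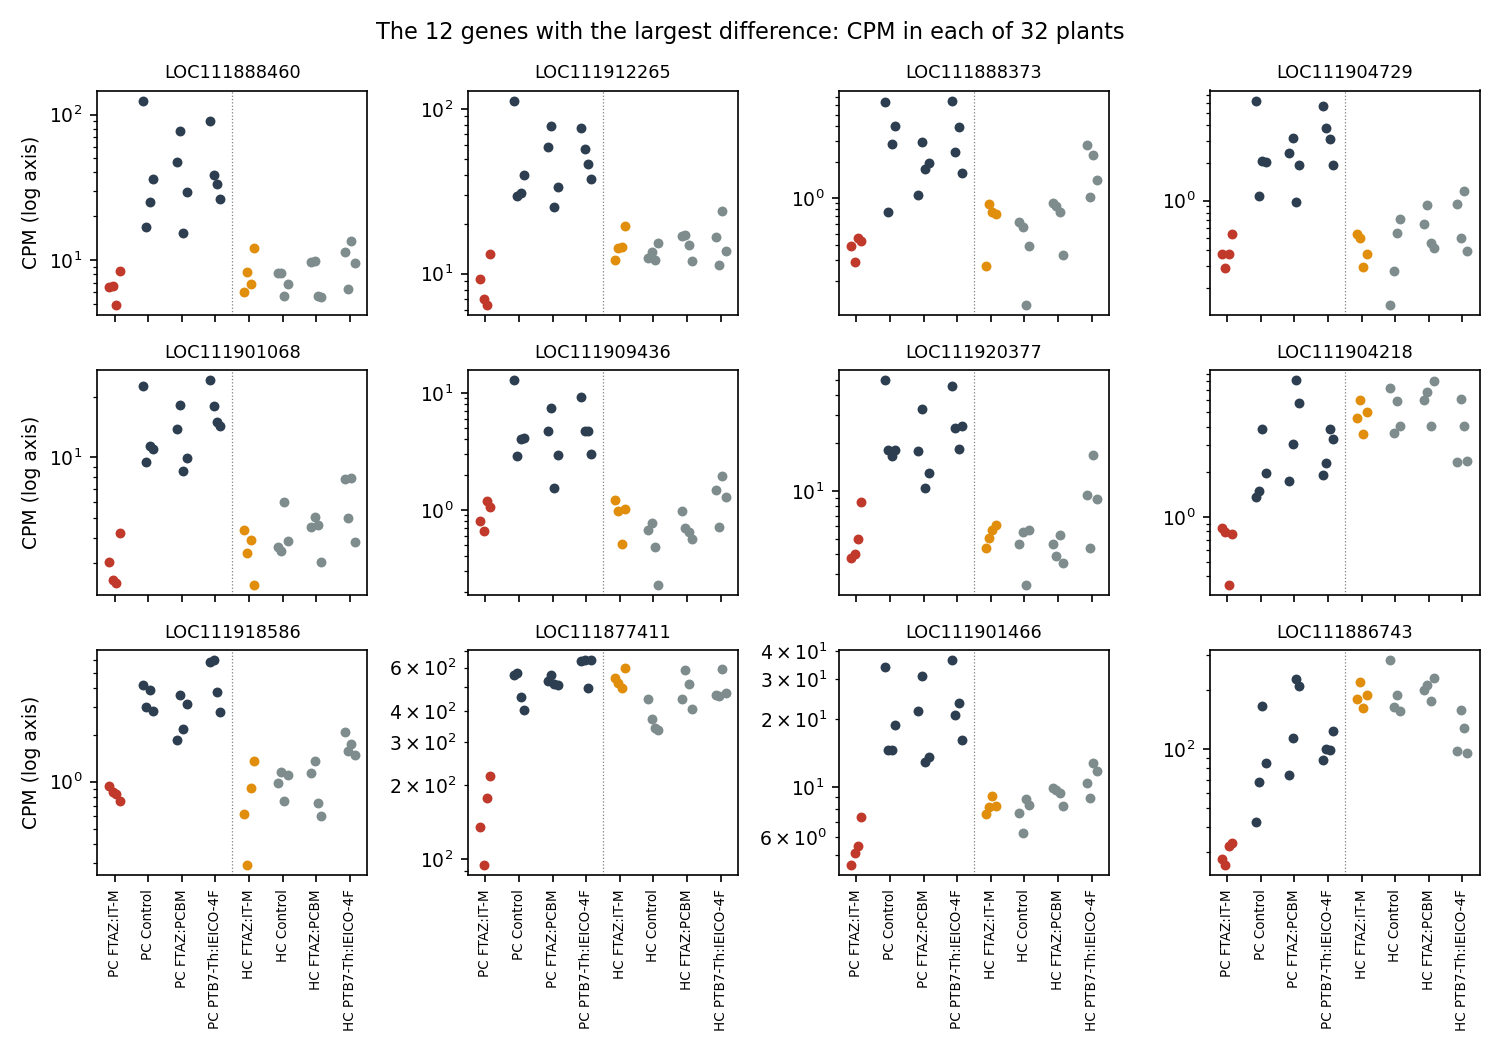
CPM of the 12 genes with the largest d in each of the 32 plants, on log axes that differ between panels. Each point is a plant, the dotted line separates PC from HC, red points are PC FTAZ:IT-M and orange points HC FTAZ:IT-M. In LOC111888460 all HC plants lie below the 12 other PC plants, whereas in LOC111904218, LOC111877411 and LOC111886743 all HC plants lie above the PC FTAZ:IT-M plants.

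The genes with the highest mean CPM over the PC plants were LOC111877411, LOC111921500, LOC111879849 and LOC111896600. LOC111921500 (NW_019678127.1, 268298 to 274982, minus strand, d of −0.66) had 368, 394, 402 and 447 CPM in PC FTAZ:IT-M and 633, 555, 453 and 523 CPM in the PC control, where replicate 3 came close to the filtered plants. LOC111896600 (NW_019683226.1, 617619 to 620625, minus strand, d of −0.62) had 223, 197, 211 and 223 and 359.9, 278, 254 and 288 CPM. In both genes the HC control and HC FTAZ:IT-M plants overlapped, with means of 423 and 423 CPM in the former and 243 and 228 CPM in the latter. Per length, the highest of the 150 genes was LOC111879849, at 511 CPM per kilobase, against a median of 6.16 CPM per kilobase over the list.

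At the lower end of the list, LOC111900081 (NW_019673379.1, 797623 to 801613, minus strand) and LOC111916020 (NW_019677037.1, 1693134 to 1695226, plus strand) were the last genes taken, with d of −0.60 each. LOC111900081 had 81, 76.1, 66.3 and 84.7 CPM in PC FTAZ:IT-M and 114, 108, 92.5 and 98.1 CPM in the PC control, and LOC111916020 had 1.34, 1.54, 1.26 and 1.42 and 2.85, 1.8, 1.65 and 2.32 CPM. The first genes left outside were LOC111897679 and LOC111882062, with d of −0.59 each and PC FTAZ:IT-M means of 21 and 27.6 CPM against 29.5 and 40.2 CPM in the PC control. The limit of 150 therefore falls within a run of nearly equal differences.

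Which genes rank among the first 150 depended on single plants. Without PC FTAZ:IT-M replicate 4, the rule was met by 1664 genes in place of 427. Of the 150 genes 149 still met it, but 49 ranked among the first 150, since newly admitted genes ranked above the others. Without PC FTAZ:IT-M replicate 1, 761 genes met the rule, 149 of the 150 still did, and 96 ranked among the first 150. Without PC control replicate 3 these numbers were 768, 149 and 118. Leaving out PC control replicate 1, the high plant, left 147 of the 150 meeting the rule and 140 among the first 150.

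Whether the FTAZ:IT-M filter went with lower levels of these genes when light intensity was not adjusted was tested in HC, whose plants did not rank the genes. Against the HC control, edgeR's quasi-likelihood test called 0 of the 150 genes in HC FTAZ:IT-M at an adjusted p under 0.05, and 0% of all 24483 tested genes. Their log2 fold changes ranged from −0.36 to 0.85 with a median of 0.0004, against 0.0011 over all tested genes, and 75 of the 150 (50%) were above 0, against 50.2% of all genes. At an unadjusted p under 0.05 stood 13 genes (8.67%), against 7.14% of all genes. DESeq2's Wald test called 1 of the 150 higher (0.667%, against 0.0572% of the 24472 genes with an adjusted p, or 0.094% in either direction), LOC111883971, which is named for that reason. It stood at 209.6 ± 20.8 CPM (SD, n = 4) in the HC control and 254 ± 29.1 CPM (SD, n = 4) in HC FTAZ:IT-M (log2 fold change 0.34, DESeq2 adjusted p 0.0289, edgeR adjusted p 0.287).

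The counterpart of d in HC is the difference between FTAZ:IT-M and the mean of the other 3 HC groups. There edgeR also called 0 of the 150 genes, against 0.0368% of all genes, and 13 genes (8.67%) had an unadjusted p under 0.05, against 8.13% of all. DESeq2's Wald test called 0 as well, against 0.135% of all genes higher and 0.0245% lower. The members lay lower in this comparison than in that with the control alone: the median log2 fold change was −0.04 against 0.0008 over all genes, and 57 of the 150 (38%) were above 0, against 50.2%. This median was −0.02 without HC PTB7-Th:IEICO-4F replicate 3 or HC FTAZ:IT-M replicate 3, −0.06 without HC PTB7-Th:IEICO-4F replicate 4 and −0.07 without HC FTAZ:IT-M replicate 4, and with a gene length offset it was 0.0022 (0.04 over all genes). The no-overlap criterion of the rule, applied to HC, was met by 0 of the 140 genes with a mean of at least 1 CPM there, against 0.114% of all such genes with the 4 FTAZ:IT-M plants lowest and 0.00494% with them highest. Compared with the HC control alone, the 4 HC FTAZ:IT-M plants lay below all 4 control plants in 5 genes (3.33%, against 5.07% of all genes) and above them in 3 (2%, against 0.611%). Those 3 were LOC111877411, LOC111895477 and LOC111879849.

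LOC111895477 (NW_019682997.1, 1376699 to 1404057, plus strand, d of −1.21) had 54.6, 47.1, 75.8 and 81.6 CPM in PC FTAZ:IT-M and 171, 155, 136 and 125 CPM in the PC control. In HC it had 115, 105, 106 and 129 CPM in FTAZ:IT-M and 100, 87.4, 69.4 and 76 CPM in the control. LOC111879849 (NW_019679128.1, 124440 to 125398, plus strand, d of −0.72) had 275, 307, 324 and 418 CPM in PC FTAZ:IT-M, 580.1, 525, 459 and 454 CPM in the PC control, 315, 329.7, 282 and 326 CPM in HC FTAZ:IT-M and 247, 257, 243 and 276 CPM in the HC control. In both genes the FTAZ:IT-M plants were below all control plants in PC and above all of them in HC, but the HC differences did not pass the threshold (edgeR adjusted p 0.589 and 0.633). Under HC PTB7-Th:IEICO-4F all plants of both genes also lay above all HC control plants, and both genes were called higher.

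Under FTAZ:PCBM, a blend that shares FTAZ with FTAZ:IT-M, edgeR called 0 of the 150 genes in HC against the control, beside 0.0327% of all genes (0.00408% higher and 0.0286% lower). At an unadjusted p under 0.05 stood 20 genes (13.3%, against 7.05% of all genes). The median log2 fold change was 0.05 against −0.002 over all genes, and 90 of the 150 (60%) were above 0, against 49.4%. This median was 0.03 without HC control replicate 4 or HC FTAZ:PCBM replicate 1, and 0.08 without HC FTAZ:PCBM replicate 4. DESeq2's Wald test called 2 of them, named for that reason, 1 higher (against 0.0799% of the 18785 genes with an adjusted p) and 1 lower (against 0.144%). LOC111879849 was higher, at 336 ± 40.5 CPM against 256 ± 14.9 CPM (SD, n = 4 each) in the HC control (DESeq2 adjusted p 0.0489, edgeR 0.256). LOC111909923 was lower, at 5.3 ± 0.782 CPM against 7.43 ± 1.24 CPM (SD, n = 4 each) (DESeq2 adjusted p 0.0489, edgeR 0.221). Its span overlaps that of LOC111909845, and whether their exons overlap was not checked. Where exons do overlap, reads counted without strand cannot be assigned between the partners with certainty.

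Under PTB7-Th:IEICO-4F some of these genes rose in HC. By edgeR, 14 of the 150 genes were higher than in the HC control (9.33%), against 2.26% of all tested genes, and 0 were lower, against 1.57%. Their log2 fold changes were 0.44 to 2.15 with a median of 0.81, and in 12 of the 14 (85.7%) the plants of the groups did not overlap, against 48.5% of the 553 genes called higher in all. Over all 150 genes the median was 0.08 against 0.006 for all tested genes, and 100 genes (66.7%) were above 0 against 51.1%. That median was 0.05 without HC PTB7-Th:IEICO-4F replicate 1, 0.12 without replicate 2 and 0.15 without replicate 4. With a gene length offset the calls over all genes were 1149 higher and 234 lower, in place of 553 and 384, and those of the 150 genes 21 higher and 0 lower. By the PC group in which they were highest, 13 of the 14 belonged to the 101 genes highest under PTB7-Th:IEICO-4F and 1 to the 45 highest under FTAZ:PCBM. The PC group means also chose the 150 genes, and the same split of all genes called higher was not computed. Nothing is read from this split. None of the 14 was annotated as long non-coding. The 150 genes had to average at least 1 CPM in PC, and the tested genes did not. The share called higher among tested genes above that minimum was not computed.

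The count of 14 rests on the plants and on the samples in the model. It was 3 without HC control replicate 3, 6 without HC PTB7-Th:IEICO-4F replicate 3 and 9 without HC control replicate 1. In a model of only these 2 groups it was 0. The genes called higher in all fell too, from 553 to 116, 171, 179 and 9. At an unadjusted p under 0.05 the model of only these 2 groups held 41 of the 150 genes, and the matching share over all genes was not computed. The main model also held 41 (27.3%, against 18.7% of all genes). In the model of only these 2 groups the log2 fold changes of the 14 genes moved by at most 0.0039. Lower calls among the 150, named because they are few, appeared in some alternatives. Without HC PTB7-Th:IEICO-4F replicate 2 they were LOC111895719, LOC111896731 and LOC111919058, beside 1.92% of all genes called lower. LOC111895719 alone was called lower without HC control replicate 4, beside 1.32% of all genes, and with DESeq2's Wald test. The Wald test called 19 of the 150 genes higher (12.7%, against 3.69% of all genes) and 1 lower (0.667%, against 2.77%). Whether the filters differed from each other in HC was not tested. The HC PTB7-Th:IEICO-4F plants carry the library numbers 29 to 32 and the HC control 5 to 8. What these numbers stand for is not stated, and their part in the difference was not tested.

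The largest of these changes was in LOC111888373, the gene with the third largest d. Its HC PTB7-Th:IEICO-4F plants had 2.76, 1.01, 2.3 and 1.41 CPM and its HC control plants 0.626, 0.564, 0.126 and 0.395 CPM. The groups did not overlap, and the filtered plants came into the range of the other PC groups, whose lowest plant had 0.759 CPM. The log2 fold change was 2.15 (SE 0.53, edgeR adjusted p 0.0215), it ranged from 1.84 to 2.41 when single plants were left out, and the call was kept in 10 of 15 alternatives.

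LOC111884072 (NW_019680189.1, 168520 to 170067, plus strand) had 2.88, 1.86, 2.98 and 2.28 CPM in HC PTB7-Th:IEICO-4F and 1.08, 1.4, 1.39 and 0.77 CPM in the HC control. All filtered plants stood above all controls, with a log2 fold change of 1.15 (SE 0.24, edgeR adjusted p 0.00666). Its HC FTAZ:IT-M plants, at 1.55, 1.18, 0.801 and 1.13 CPM, overlapped the control. LOC111908178 (NW_019675078.1, 66944 to 67687, plus strand) had 1.68, 2.28, 1.04 and 1.2 CPM in HC PTB7-Th:IEICO-4F and 0.605, 0.523, 0.819 and 1.06 CPM in the HC control. Here the lowest filtered plant fell just under the highest control plant, and the log2 fold change was 1.10 (SE 0.27, edgeR adjusted p 0.0222).

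LOC111885977 (NW_019680641.1, 1213624 to 1215129, minus strand) had 5.58, 6.94, 8.22 and 4.94 CPM in HC PTB7-Th:IEICO-4F and 2.75, 3.49, 2.75 and 4.2 CPM in the HC control. These plants did not overlap, and the log2 fold change was 1.01 (SE 0.23, edgeR adjusted p 0.0133). The lowest adjusted p of the list belonged to LOC111917841 (NW_019677353.1, 403562 to 408875, plus strand), named after its value was seen. It had 32.8, 30.1, 42.6 and 43.7 CPM in HC PTB7-Th:IEICO-4F and 22.6, 19.3, 23 and 24.9 CPM in the HC control, a log2 fold change of 0.79 (SE 0.12, edgeR adjusted p 0.00124). Its HC FTAZ:IT-M plants, at 24.4, 18.7, 21.7 and 27.4 CPM, overlapped the control. The call was kept in 14 of 15 alternatives, as were those of LOC111879849 and LOC111884072.

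The abundant LOC111879849 rose to 366 ± 61.2 CPM (SD, n = 4) in HC PTB7-Th:IEICO-4F, from 256 ± 14.9 CPM (SD, n = 4) in the HC control, a log2 fold change of 0.57 (SE 0.11, edgeR adjusted p 0.00336). The other 8 called genes were LOC111895477, LOC111895776, LOC111876996, LOC111904292, LOC111887882, LOC111898206, LOC111912474 and LOC111882939. Among them LOC111895776 had 39.7, 18.9, 33.7 and 35.4 CPM in HC PTB7-Th:IEICO-4F and 20.4, 18.3, 15.2 and 20.1 CPM in the HC control (edgeR adjusted p 0.00819), and its replicate 2 of the filter overlapped the control. LOC111882939 was the least abundant of the 14 per length, at 1.08 ± 0.334 CPM against 0.559 ± 0.138 CPM (SD, n = 4 each), and its call was kept in 6 of 15 alternatives (edgeR adjusted p 0.043).

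Where the HC plants stood between the PC groups differed from gene to gene. On a scale with 0 at the PC FTAZ:IT-M mean and 1 at the mean of the other 3 PC groups, both in L, the mean of the 4 HC groups had a median of 0.40. It was under 0.25 in 50 genes, between 0.25 and 0.75 in 64 and at 0.75 or above in 36, and it was below 0 in 17 genes and above 1 in 16. By cover the medians were 0.41 in the HC control, 0.36 in HC FTAZ:IT-M, 0.46 in HC FTAZ:PCBM and 0.50 in HC PTB7-Th:IEICO-4F. The 2 ends of this scale come from the values that chose the genes, so the positions are a description, and light intensity cannot be told apart from anything else that differed between the experiments.

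**Figure D3:**
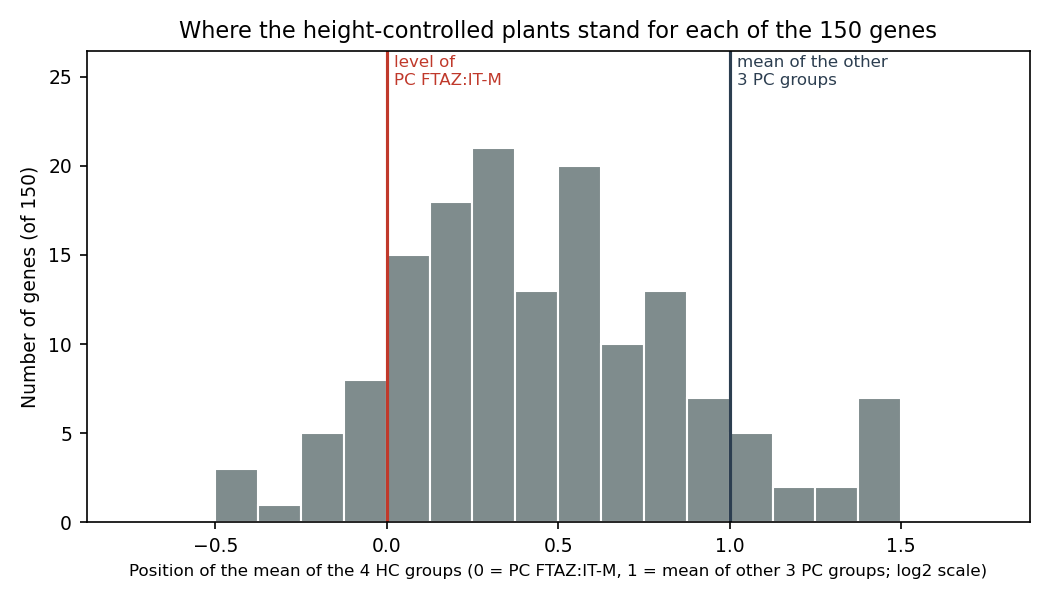
Histogram of the position of the mean of the 4 HC groups for each of the 150 genes, on a log2 scale set to 0 at PC FTAZ:IT-M (red line) and 1 at the mean of the other 3 PC groups (dark line). The median is 0.40, with 17 genes below 0 and 16 above 1.

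All 16 HC plants lay below the 12 other PC plants in 16 genes (10.7%, against 1.03% of all expressed genes). All 16 lay above the 4 PC FTAZ:IT-M plants in 30 genes (20%, against 3.15%). The reverse cases, above the 12 other PC plants or below PC FTAZ:IT-M, held 0 of the 150 genes, against 0.921% and 4.32%. The rule had set the PC groups apart, so nothing is read from these counts. The 16 include LOC111888460, LOC111912265, LOC111901068, LOC111901466 and LOC111909434, and all 16 are annotated as protein coding. The 30 include LOC111904218, LOC111877411, LOC111886743, LOC111900081 and the long non-coding LOC111912937.

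The PTB7-Th:IEICO-4F difference in HC was set beside the position of the 8 HC plants under the FTAZ filters. These plants enter neither side of that difference, but their position went with that of the HC control, which is subtracted. In the 55 genes where these 8 plants stood under 0.25, the HC PTB7-Th:IEICO-4F minus control difference had a median of 0.32 (log2), was above 0 in 53 genes and was called in 10. In the 59 genes between 0.25 and 0.75 the median was 0.03, with 34 above 0 and 3 called. In the 36 genes at 0.75 or above the median was −0.08, with 13 above 0 and 1 called. In the first class the median position was 0.06 in the HC control, −0.01 in HC FTAZ:IT-M and 0.30 in HC PTB7-Th:IEICO-4F. The median position of the HC control was 0.50 in the second class and 0.93 in the third, so the classes also sort the control. Over all tested genes 51.1% were above 0 and 2.26% were called higher. The classes were made after the data were seen, on a scale set by the values that chose the genes. They carry no test, and nothing is read from the order of the classes.

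**Figure D4:**
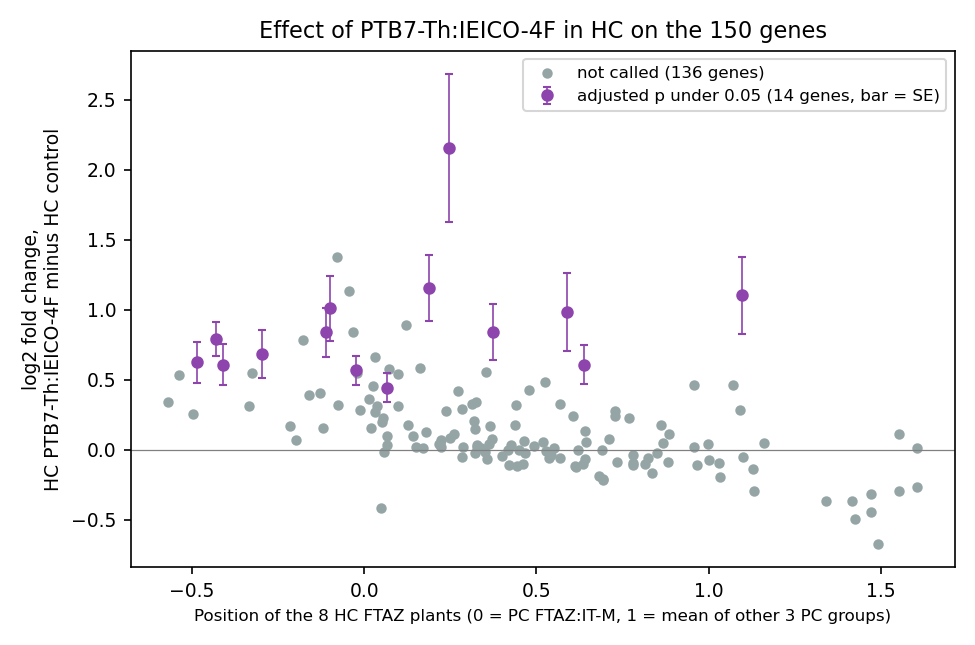
Log2 fold change of HC PTB7-Th:IEICO-4F against the HC control (vertical axis) by the position of the 8 HC FTAZ plants (horizontal axis, 0 at PC FTAZ:IT-M and 1 at the other 3 PC groups) for the 150 genes. Purple points with SE bars are the 14 genes called by edgeR, and grey points the other 136. Differences above 0 gather on the left, with 53 of 55 genes under a position of 0.25, and the highest point is LOC111888373 at 2.15. The HC control, which is subtracted, also stood lowest on this scale in the genes on the left.

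Annotation was not used to choose the genes. Of the 150 identifiers, 146 matched RefSeq's gene table of Lsat_Salinas_v11. Among them 34 were long non-coding RNAs (23.3%, exact 95% binomial interval 16.7 to 31, which covers counting error only), 110 were protein coding and 2 of another class. Over all expressed genes the share of long non-coding RNAs was 5.99%, or 1192 of 19888, and over all genes that met the rule it was 17.1%, or 71 of 415. Lists made by the same rule for other groups held 8.11% (lowest in PC FTAZ:PCBM), 0.68% (lowest in PC PTB7-Th:IEICO-4F), 2.01% (highest in PC FTAZ:IT-M), 0% (highest in PC FTAZ:PCBM, 0 of 144) and 13.8% (highest in PC PTB7-Th:IEICO-4F). For the PC control the rule gave short lists, with 1 of 22 genes (lowest) and 0 of 8 (highest). The share was thus above that of all expressed genes in some lists and below it in others. Genes are not independent, and these shares were compared without a test.

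**Figure D5:**
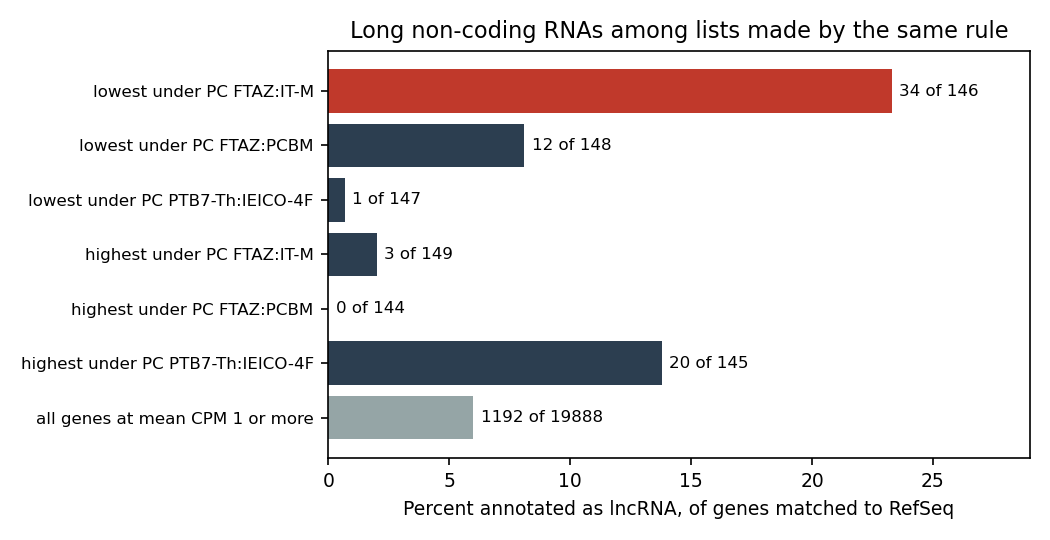
Percent of genes annotated as long non-coding RNA in lists made by the same rule from the PC groups, and among all genes with a mean of at least 1 CPM in PC, of genes matched to RefSeq. The list lowest under PC FTAZ:IT-M holds 34 of 146, and all expressed genes 1192 of 19888.

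The long non-coding RNAs were more frequent in the lower ranks of the list, with 0 among the first 12 genes, 11 in ranks 1 to 75 and 23 in ranks 76 to 150. Their median d was −0.72, against −0.82 in the protein-coding genes. They had a median of 5 exons and 2164 exonic bases, against 3 exons and 1406 bases over all 1192 expressed long non-coding RNAs, and their median level was 5.63 against 3.94 CPM per kilobase. The protein-coding genes of the list had a median of 2122 bases, against 1664 over all expressed, and a median level of 7.20 against 11.9 CPM per kilobase. Under HC PTB7-Th:IEICO-4F, 0.236% of all tested long non-coding RNAs were called higher by edgeR, and 0 of the 34.

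By position, the 150 genes lay on 136 scaffolds of the Lsat_Salinas_v7 assembly, and 3 pairs were direct neighbours. LOC111920457 (NW_019677972.1, 200683 to 202609) and LOC111920455 (202684 to 206384) are long non-coding RNAs on the plus strand with 74 bases between them. LOC111920457 had 11.8, 10.6, 10.9 and 10.1 CPM in PC FTAZ:IT-M and 21.9, 15.6, 13.2 and 14.6 CPM in the PC control, and LOC111920455 had 20.5, 20.2, 16.8 and 25.2 and 38.1, 30.6, 29.5 and 29.8 CPM. In HC the control and FTAZ:IT-M plants of both overlapped, with means of 13.5 and 13.3 CPM in the former and 27.8 and 27.3 CPM in the latter. With so short a gap on the same strand, these counts do not show whether the pair is transcribed separately.

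LOC111909434 (NW_019675527.1, 226604 to 229139, plus strand) lies 31934 bases from LOC111909436 on the opposite strand. It had 40.6, 38.6, 44.4 and 43.4 CPM in PC FTAZ:IT-M, 139.5, 60.2, 71.1 and 73.9 CPM in the PC control and 31.4, 34.8, 30.4 and 23.7 CPM in the HC control, so its HC control fell below PC FTAZ:IT-M. LOC111899276 (NW_019673243.1, 429727 to 434293, plus strand) and LOC111899278 (452509 to 453988, minus strand) are 18215 bases apart. They stood at 30.3 ± 3.25 CPM (SD, n = 4) and 8.76 ± 0.837 CPM (SD, n = 4) in PC FTAZ:IT-M, against 42.5 ± 5.67 CPM (SD, n = 4) and 13.1 ± 3.59 CPM (SD, n = 4) in the PC control. The span from start to end, introns included, overlapped that of another annotated gene for 8 of the 150 genes (5.33%, against 5.10% of all expressed genes). Whether exons of these partners overlap was not checked. Where they do, reads cannot be assigned between the partners with certainty.

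Within the HC groups the genes varied together from plant to plant more often than not. After removing group means, the pairwise Pearson correlation over the 16 HC plants had a median of 0.25 among the 140 genes expressed there and was positive in 74.0% of pairs. Over all 20224 genes expressed in HC the median was 0.07, with 57.3% positive. Genes of a plant share its library and depth, so these values are a description. Replicate 3 of HC PTB7-Th:IEICO-4F was the highest of its group in 83 genes and replicate 4 the lowest in 80, and replicate 4 of HC FTAZ:PCBM was the lowest of its group in 72.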

How the data were processed

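Poly-A selected leaf RNA of 32 plants was sequenced. Per the file headers, the authors counted reads over exons of the Lsat_Salinas_v7 annotation with featureCounts 2.0.1, setting no option for strand or multi-mapping, and deposited these counts unscaled. FastQC, HISAT2 and DESeq2 are named in the submitters' processing notes, without versions. Counts that map equally to near-identical copies may be lost.

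CPM, L and d were computed as the report states. Genes were filtered with filterByExpr (minimum count 10, minimum total 15), leaving 24483. Counts were scaled by TMM and fitted with edgeR 4.0.16 (limma 3.58.1, R 4.3.3), all 32 plants in a model with a mean per group. The p-values were adjusted by Benjamini-Hochberg over all tested genes in each of the 4 HC comparisons, and called means under 0.05. The method was tested on simulated data in which genes varied independently, and the outcome is not reported here. Lists and shares were computed in pandas 2.3.3 and scipy 1.17.1 under Python 3.11.15. The p-values measure the spread between individual plants.

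The 150 genes, the tests and the naming rule were chosen with earlier results of these data known. The rule names the 12 largest d, the 4 highest CPM, up to 4 called genes per HC comparison and direction, neighbouring pairs, the list's edge and the widest and narrowest spans of the other PC groups. Alternatives were DESeq2's size factors, its Wald test (DESeq2 1.42.0), no low-count filter, fewer samples in the model, replicate number as a block, an offset for gene length (lowess, span 0.5), other pseudocounts and CPM limits for the rule, and leaving out plants. Same-numbered HC plants deviated from group means with correlations of −0.166 to 0.190 with their control. No pairing by number was seen in these values, which cannot exclude one, and PC was not checked. Planned descriptions of promoters and proteins were not run, since no sequences were used here.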

Additional observations from a re-analysis of the deposited data

Results flagged for a closer look

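Single plants stood apart from the rest of their group in 14 of 232 combinations of gene or mean level and group, where about 1 in 20, or 11.6, would do so by chance. The measure is the gap to the nearest plant as a share of the group's range. For the mean level of the 150 genes it was 0.84 in the PC control, where replicate 1 was high at 0.41, and 0.845 in the HC control, where replicate 3 was high at −0.29.

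In PC FTAZ:IT-M, low plants stood apart in LOC111904218 (0.887, replicate 3 at 0.352 CPM), LOC111908178 (0.939, replicate 4 at 0.417 CPM) and LOC111912937 (0.835, replicate 3 at 3.36 CPM). In the PC control, replicate 1 was high in LOC111920377 (0.92, at 49.4 CPM against 18.2 CPM for the next plant) and in LOC111920455 (0.859, at 38.1 CPM). In PC PTB7-Th:IEICO-4F, replicate 3 was low in LOC111877411 (0.975), replicate 2 was high in LOC111885977 (0.861) and replicate 1 was high in LOC111920455 (0.876).

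In HC, a low plant stood apart in LOC111888373 under FTAZ:PCBM (0.83, replicate 4 at 0.334 CPM) and in LOC111900081 under FTAZ:IT-M (0.835, replicate 2 at 106 CPM). A high plant stood apart in LOC111877411 under PTB7-Th:IEICO-4F (0.862, replicate 3 at 593 CPM) and in LOC111889306 in the control (0.911, replicate 3 at 33.1 CPM).

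In 3 genes every FTAZ:IT-M plant was below every control plant in PC and above every control plant in HC. In each of them every HC PTB7-Th:IEICO-4F plant was also above every HC control plant. The FTAZ:IT-M minus control difference of the mean log2(CPM + 0.1) in HC was 0.536 for LOC111877411, 0.461 for LOC111895477 and 0.29 for LOC111879849. The direction in PC was set by the choice of genes, and the difference between the experiments was not tested.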

How the results depend on the processing

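None of the 14 genes called higher in HC PTB7-Th:IEICO-4F reversed direction under any alternative. Among the 28 genes named by rule, uncalled differences did change sign, in at most 6 genes for HC FTAZ:IT-M against the control, 8 for HC FTAZ:PCBM and 5 in each of the other comparisons. Of the 150 genes, those called higher numbered 15 with DESeq2's size factors, 19 with its Wald test (20 with 1 lower gene), 13 without a low-count filter, 14 in a model of the 16 HC plants (11 of them shared) and 21 with the length offset. The calls over all genes in both directions were 945, 1489, 674, 506 and 1383, against 937. When the model held no groups but PTB7-Th:IEICO-4F and the control, the count was 0, and 20 genes were called in all. Leaving out single plants gave 3 to 18 calls among the 150, the 18 being 15 higher and 3 lower. Those 18 came without HC PTB7-Th:IEICO-4F replicate 2, where 2.64% of all genes were called higher and 1.92% lower. With a replicate block 15 were called, the other counts of calls stayed at 0, and the genes at an unadjusted p under 0.05 numbered 14 in place of 13 for FTAZ:IT-M against the other 3 groups, 19 in place of 20 for FTAZ:PCBM and 42 in place of 41 for PTB7-Th:IEICO-4F. Against the HC control, for the FTAZ filters, the counts of 0 stayed at 0, except 1 and 2 with the Wald test, and leaving out plants gave 0 to 0. Against the other 3 HC groups, and for plants that do not overlap, all alternatives gave 0. The cause of these shifts was not tested. Genes meeting the rule numbered 424 with a pseudocount of 1, 438 with TMM scaling, 376 at a mean CPM of 5 or more, 444 without a minimum and 525 with the length correction, and 423 to 1664 when plants were left out. Of the 150 genes, 107 to 133 stayed among the first 150 under the settings that keep all plants. The length offset moved the median log2 fold change of the 150 from 0.0004 to 0.08 in HC FTAZ:IT-M (0.06 over all genes), from −0.04 to 0.0022 against the other 3 groups (0.04), from 0.05 to 0.09 in HC FTAZ:PCBM (0.02) and from 0.08 to 0.15 in HC PTB7-Th:IEICO-4F (0.06). Leaving out plants moved the first of these medians between −0.04 and 0.02. At this depth the lowest count in the list was 6, above the floor of 3 counts. The pseudocount of 0.1 CPM still narrows differences in L at low levels, as in LOC111888373, whose lowest HC control plant had 0.126 CPM. With a pseudocount of 1, 130 of the 150 genes stayed among the first 150.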
